A study of Arabidopsis thaliana with 4 samples.

Results

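RNA Pol II occupancy was examined at 6 genes of the GROWTH-REGULATING FACTOR (GRF) family that carry a site complementary to miR396, namely *GRF1* (AT2G22840), *GRF2* (AT4G37740), *GRF3* (AT2G36400), *GRF7* (AT5G53660), *GRF8* (AT4G24150) and *GRF9* (AT2G45480). They were taken by locus identifier, as 6 of the 27444 protein-coding genes annotated on the 5 nuclear chromosomes of *Arabidopsis*. Chromatin came from leaves of 21-day-old plants grown on soil at 22°C, crosslinked with 1% formaldehyde for all 4 libraries. It was immunoprecipitated with an antibody against total RNA Pol II (ChIP) or sequenced without that step (input). The WT group was the accession Columbia-0 (Col-0) and the *hyl1-2* group was a knock-out mutant of *HYL1*, a single T-DNA insertion line, and the plants of both groups received no treatment that the labels name. Each genotype had 1 input and 1 ChIP library, so genotypes were compared without replicates, and every interval given is a 95% interval for counting error alone.

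GRF proteins are plant transcription factors that, together with the GIF coactivators, promote cell proliferation in young leaves. The microRNA miR396 pairs with a stretch of most *GRF* mRNAs and lowers their amount, which limits cell proliferation in the leaf. HYL1 is a double-stranded RNA-binding protein that helps DCL1 to cut miRNA precursors, and plants without it hold less of many miRNAs. ChIP with an antibody against RNA Pol II measures the polymerase on the gene and not the amount of mRNA on which a miRNA acts.

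The 4 libraries held 17734005 reads (WT input), 22766187 (*hyl1-2* input), 37717174 (WT ChIP) and 30333558 (*hyl1-2* ChIP). *HYL1* itself held 1037 ChIP reads in WT and 2473 in the mutant. Division by the inputs (411 and 490 reads) gave a fold change of 3.19 (2.75 to 3.71). The reads were not split at the insertion, so this value does not check the label. Markers of leaf cells, such as *RBCS1A* and *RCA*, were compared with markers of other organs as a check of the tissue, in RPM (read counts scaled to all reads of the library). Over the whole genes, the 5 leaf markers summed to 92.6 RPM in WT ChIP against 96.8 in WT input, and to 144 in *hyl1-2* ChIP against 101 in *hyl1-2* input. The 3 seed storage protein genes used as markers of another organ summed to 55.0 RPM in WT ChIP against 28.8 in WT input, and to 35.5 against 31.8 in *hyl1-2*. The median ratio of ChIP to input was therefore lower for leaf than for seed markers in WT (0.872 against 2.23) and higher for leaf than for seed markers in *hyl1-2* (1.42 against 1.12). The 3 flower markers had medians of 0.763 and 0.789, and the 2 markers of root hairs and pollen had 1.61 and 1.15. The WT ChIP library thus stood apart from what its tissue label would give, and every fold change rests on it. For this reason the rank of each GRF gene within the *hyl1-2* libraries is given as well. The part of this difference between the libraries in the values of the GRF genes was not tested.

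The mature miRNAs and their sites in the 6 genes are printed first, because the site is what the members share. The sequences were read from the TAIR10.1 assembly of RefSeq at the annotated positions. The miRNAs miR396a-5p (chr2:4142443-4142463, minus strand) and miR396b-5p (chr5:13611808-13611828, plus strand) share the seed (bases 2 to 8, in capitals) and differ only in the last base.
miR396a-5p: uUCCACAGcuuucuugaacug
miR396b-5p: uUCCACAGcuuucuugaacuu

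The best match of these miRNAs was searched in every annotated transcript of each gene, with no more than 1 bulged base. In the sites, given 5′ to 3′ on the strand of the gene, capitals mark the bulged base and each base that does not form a Watson-Crick pair. Within a run of equal bases the place of the bulge is arbitrary.
GRF1, chr2:9729944-9729965: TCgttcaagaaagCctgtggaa
GRF2, chr4:17726404-17726425: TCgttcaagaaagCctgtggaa
GRF3, chr2:15271745-15271766: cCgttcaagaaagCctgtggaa
GRF7, chr5:21795145-21795166: TCgttcaagaaagcAtgtggaa
GRF8, chr4:12538649-12538670: TCgttcaagaaagcAtgtggaa
GRF9, chr2:18746292-18746313: aCgttcaagaaagcTtgtggaa

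All 6 sites lie within coding sequence, in exon 3 of 4 for *GRF1*, *GRF2* and *GRF3*, in exon 2 of 3 for *GRF7* and *GRF9* and in exon 5 of 6 for *GRF8*. Exon numbers are those of a transcript that gave the best match. The *GRF8* transcript that is longest after splicing has 4 exons. The sites of *GRF1* and *GRF2* are identical, as are those of *GRF7* and *GRF8*. Beside the bulge, *GRF3* and *GRF9* have 1 mismatch and the other 4 genes have 2. Among all 27444 protein-coding genes, each searched in its longest transcript, 3 (*GRF3*, *GRF9* and *GRF4*) reached 1 mismatch or fewer and 14 reached 2 or fewer. In *GRF5* and *GRF6* the best match had 6 mismatches, which leaves these family members outside the group. A match of sequence is a description and was not a measurement of cleavage.

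Over the whole gene, RNA Pol II was higher in *hyl1-2* at *GRF1* and *GRF3*, lower at *GRF9* and within the thresholds at *GRF2*, *GRF7* and *GRF8*. *GRF1* and *GRF3* are best known, together with *GRF2*, as redundant promoters of leaf growth, whereas *GRF9* is known to restrict it. The fold change is the ratio of ChIP RPM to input RPM in *hyl1-2* divided by the same ratio in WT, counted from reads whose extended interval overlaps the window by at least 1 bp. Genes with a value above 1.2 count as higher and those with a value below 0.8 as lower. Of all 27441 protein-coding genes with at least 10 reads in each library, 25.9% were higher and 21.4% lower. Thus the 2 higher genes and the 1 lower gene among 6 are close to the shares of all genes, and the median fold change was 1.03 for the 6 genes and 0.958 for all genes. In such bulk chromatin, more polymerase per cell and more cells that carry it cannot be told apart.

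*GRF1* (chromosome 2, 9728480 to 9731301, plus strand) held 424 reads (WT) and 456 reads (*hyl1-2*) in the inputs and 655 and 857 reads in the ChIP libraries. WT ChIP lay below its input, with a ratio of 0.726 (0.643 to 0.821), and *hyl1-2* ChIP lay above it, with a ratio of 1.41 (1.26 to 1.58). The *hyl1-2* ChIP value was the high one, and the intervals of the ratios do not overlap between the genotypes. The fold change was 1.94 (1.64 to 2.29), and 92.0% of all protein-coding genes had a lower one. The inputs differed too, with 0.838 times as much RPM in *hyl1-2* as in WT (0.734 to 0.956), and the ChIP libraries alone gave 1.63 (1.47 to 1.80). Of the 5 leaf markers, 4 were also higher in *hyl1-2*, with whole-gene fold changes from 0.849 (*LHCB1.2*) to 4.30 (*RBCS1A*), and their part in the value of *GRF1* and *GRF3* was not tested. Within each genotype, 13.9% of genes had a lower ratio than *GRF1* in WT and 87.7% in *hyl1-2*.

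*GRF3* (chromosome 2, 15270088 to 15273115, minus strand) held 483 and 644 reads in the inputs of WT and *hyl1-2* and 782 and 1400 reads in their ChIP libraries. Its ratios were 0.761 (0.680 to 0.853) in WT and 1.63 (1.49 to 1.79) in *hyl1-2*, again with intervals that do not overlap. The inputs of *GRF3* were alike in RPM, and the ChIP libraries differed. The fold change was 2.14 (1.85 to 2.48), which 93.7% of all genes did not reach, and the ChIP libraries alone gave 2.23 (2.04 to 2.43). The gene moved from a ratio above that of 17.1% of genes in WT to one above that of 91.8% in *hyl1-2*.

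*GRF9* (chromosome 2, 18745249 to 18747634, plus strand) held 375 and 512 input reads and, in ChIP, 1155 reads in WT and 777 in *hyl1-2*. It was the only member with ChIP clearly above input in both genotypes, at 1.45 (1.29 to 1.63) in WT and 1.14 (1.02 to 1.27) in *hyl1-2*. Here the WT ChIP value was the high one, and the gene ranked above 86.8% of genes in WT and 69.1% in *hyl1-2*. The fold change of 0.787 (0.669 to 0.924) lies just under the threshold, and scaling on the median protein-coding gene (0.821), a correction for GC content (0.826) or leaving out the input (0.836) ends the call while the direction stays. Markers of dividing cells, among them the cyclin gene *CYCB1;1* and the kinase gene *CDKB2;1*, had whole-gene fold changes from 0.723 to 1.097 with a median of 0.843, and 2 of the 7 were lower and 0 higher. Of all genes 21.4% were lower. Markers of seed (median 0.614, 3 of 3 lower) and of root hairs and pollen (0.716, 2 of 2 lower) had still lower fold changes. Those of flower (0.964) and leaf (1.28) had 0 lower. The part of any of these marker sets in the value of *GRF9* was not tested.

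*GRF2* (chromosome 4, 17725337 to 17727909, minus strand) held 433 and 551 reads in the inputs and 848 and 704 in the ChIP libraries of WT and *hyl1-2*. Its fold change was 1.04 (0.887 to 1.22). In *GRF7* (chromosome 5, 21794177 to 21796092, plus strand), a repressor of the stress gene *DREB2A*, the counts were 304 and 444 in the inputs and 538 and 500 in the ChIP libraries, with a fold change of 1.02 (0.840 to 1.23). Both genes had ratios close to or below 1 in both genotypes and intervals of the fold change that leave out a difference as large as that of *GRF1* or *GRF3*. *GRF8* (chromosome 4, 12535972 to 12539576, plus strand) held 538 and 693 input reads and 1180 and 834 ChIP reads, and its fold change was 0.876 (0.759 to 1.01). These 3 genes ranked above 35.4% (*GRF2*), 24.2% (*GRF7*) and 49.6% (*GRF8*) of genes in WT and above 37.3%, 16.6% and 26.4% in *hyl1-2*, so all 3 lay below the median gene in both genotypes. Among all protein-coding genes the interval of the fold change lay above 1 for 25.2% and below 1 for 27.9%, against 2 (*GRF1*, *GRF3*) and 1 (*GRF9*) of the 6 members.

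**Figure D1:**
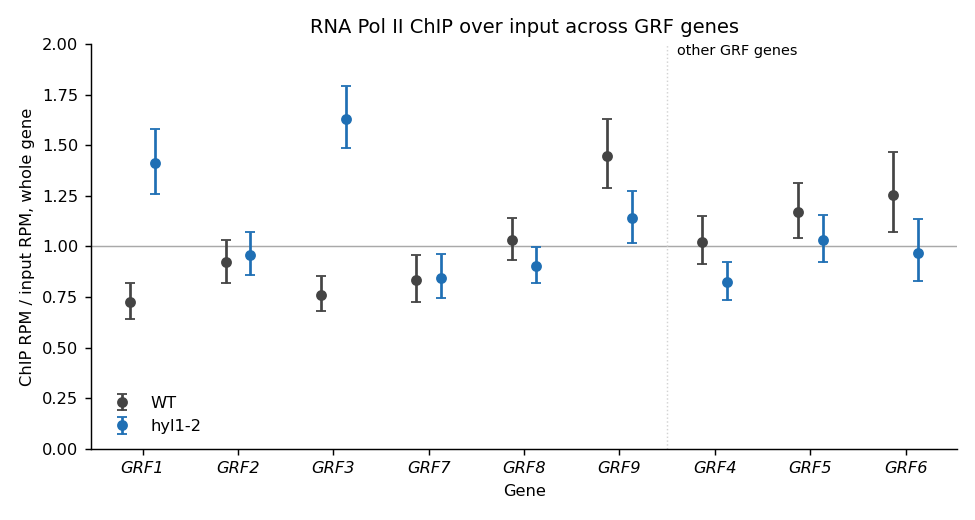
Ratio of ChIP RPM to input RPM over the whole gene (y axis, no unit) for the 6 genes and for *GRF4*, *GRF5* and *GRF6* (x axis), in WT (dark points) and *hyl1-2* (blue points), 1 library pair each. Bars are 95% intervals for counting error. *GRF1* and *GRF3* go from 0.726 and 0.761 in WT to 1.41 and 1.63 in *hyl1-2*, whereas *GRF9* goes from 1.45 to 1.14.

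The order of the levels differed between the genotypes. In WT, *GRF9* had the highest ratio of ChIP to input and exceeded the next gene, *GRF8* (1.03), 1.40-fold (1.203 to 1.64). Below it, *GRF8*, *GRF2* (0.921), *GRF7* (0.832), *GRF3* and *GRF1* followed, and no adjacent genes in this part of the order differed beyond counting error. In *hyl1-2* the order was *GRF3*, *GRF1*, *GRF9*, *GRF2* (0.959), *GRF8* (0.903) and *GRF7* (0.845). *GRF3* exceeded *GRF1* 1.16-fold, with an interval that just reaches 1 (0.999 to 1.34), and *GRF1* exceeded *GRF9* 1.24-fold (1.06 to 1.45). *GRF9* in turn exceeded *GRF2* 1.19-fold (1.01 to 1.39), and among *GRF2*, *GRF8* and *GRF7* no adjacent genes differed beyond counting error. Per length, ChIP reads ranged from 6.15 RPKM (RPM per kb of the gene) at *GRF1* to 12.8 at *GRF9* in WT and from 7.63 at *GRF8* to 15.2 at *GRF3* in *hyl1-2*. Ratios above 1 were found at 2 of the 6 genes in WT, where 54.3% of all genes had one, and at 3 of the 6 in *hyl1-2*, where 54.2% had one. When the fold changes of the genes were compared pair by pair, the interval of the quotient left out 1 in 10 of 15 pairs, which include every pair of *GRF1* or *GRF3* with another member but not *GRF1* with *GRF3* (0.906, 0.725 to 1.13). These intervals cover counting error for these libraries and were not adjusted over the 15 pairs.

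At the promoter, taken as 200 bp before the annotated 5′ end, the picture was different, and no member showed a difference beyond counting error in this window. *GRF1* held 52 (WT) and 58 (*hyl1-2*) input reads and 44 and 30 ChIP reads, a fold change of 0.976 (0.538 to 1.77). *GRF3* held 64 and 79 input reads and 47 and 36 ChIP reads, a fold change of 0.991 (0.574 to 1.71). The promoters of the 2 genes with higher occupancy over the gene thus gave values close to 1 as reported, though with wide intervals. Over the alternatives *GRF1* ranged from 0.693 to 1.14 and *GRF3* from 0.687 to 1.204, and each interval held 1. The value of 1.204 (0.693 to 2.09), with reads extended along their own strand, puts *GRF3* above the threshold. *GRF2* was above the threshold with 1.30 (0.738 to 2.28) from 59 and 69 input reads and 40 and 38 ChIP reads, and this value depended on the processing in both directions. It goes to 0.972 with scaling on the median promoter and to 0.990 with a correction for GC content. It goes to 1.63 (0.913 to 2.90) with reads extended along their own strand, to 1.71 (0.776 to 3.75) with reads counted by midpoint, and to 1.82 (1.01 to 3.28) in the window from 300 to 100 bp upstream, where the interval leaves out 1. The other members had 0.917 (*GRF7*, 0.597 to 1.41), 1.17 (*GRF8*, 0.765 to 1.80) and 0.836 (*GRF9*, 0.473 to 1.48). Hence 1 of the 6 promoters was higher and 0 lower, whereas 58.6% of 26437 protein-coding promoters were higher and 11.7% lower. The interval lay above 1 at 0 of the 6 promoters and at 30.8% of all promoters. The median fold change was 0.983 for the 6 and 1.33 for all promoters, and the intervals of the quotient held 1 in all 15 pairs of members. The interval of each of the 6 promoters also holds 1.33, so at this depth no single member differed detectably from the median promoter.

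The promoters differed in their level, with *GRF7* and *GRF8* highest in both genotypes. *GRF7* had ratios of 0.886 in WT and 0.812 in *hyl1-2*, and *GRF8* had 0.814 and 0.956. The promoters of *GRF1* (0.398 and 0.388), *GRF2* (0.319 and 0.413), *GRF3* (0.345 and 0.342) and *GRF9* (0.511 and 0.427) were lower in both genotypes. In *hyl1-2* these 4 promoters ranked low, above 9.13%, 11.3%, 5.94% and 12.6% of all promoters. In WT, where the median promoter had 0.521 and not 0.722 as in *hyl1-2*, they ranked above 34.9%, 24.1%, 27.8% and 49.0%. In GC content, these 4 promoters had 27.5%, 30%, 25% and 37.5% against a median of 31.5% for all promoters. The relation of ChIP over input to GC content was measured only in bins within protein-coding genes, as given below. The promoters of *GRF7* and *GRF8* had 43.5% and 32%. The part of GC content in the promoter levels was not tested. An antisense lncRNA gene, AT5G08015, lies over the first 244 bp of *GRF7* and the adjoining part of its promoter. The reads do not show from which strand the polymerase was transcribing.

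The promoters of *GRF1* and *GRF3* are shown because they gave no difference beyond counting error next to gene bodies that did. They were searched on both strands for TATAAA (the motif of many core promoters), CACGTG (the G-box), GAGAGA (a purine repeat), GGNCCC (the core of the site that TCP factors bind) and TGTCAGG (the motif known for GRF7), and matches are in capitals.
GRF1 promoter, chr2:9728280-9728479, plus strand: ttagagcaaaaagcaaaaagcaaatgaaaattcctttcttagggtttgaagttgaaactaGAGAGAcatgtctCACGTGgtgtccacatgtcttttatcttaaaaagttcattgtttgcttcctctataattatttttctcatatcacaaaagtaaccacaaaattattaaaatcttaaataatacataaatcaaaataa
GRF3 promoter, chr2:15273116-15273315, minus strand: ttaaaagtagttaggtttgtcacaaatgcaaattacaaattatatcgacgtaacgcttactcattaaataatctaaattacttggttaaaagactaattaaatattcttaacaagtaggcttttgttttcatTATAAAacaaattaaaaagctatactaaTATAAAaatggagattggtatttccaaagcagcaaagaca

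TATAAA starts 68 and 40 bp before the annotated 5′ end of *GRF3* and is in no other member, whereas 41.0% of all promoters hold it. CACGTG is in *GRF1* alone, 127 bp before the 5′ end (5.64% of promoters). GAGAGA is in *GRF1*, *GRF8* and *GRF9* (17.2%), and GGNCCC is in *GRF2* and *GRF9* (6.45%). TGTCAGG is in none of the 6 windows (0.641%), and none of the 5 motifs is in all 6 windows.

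**Figure D2:**
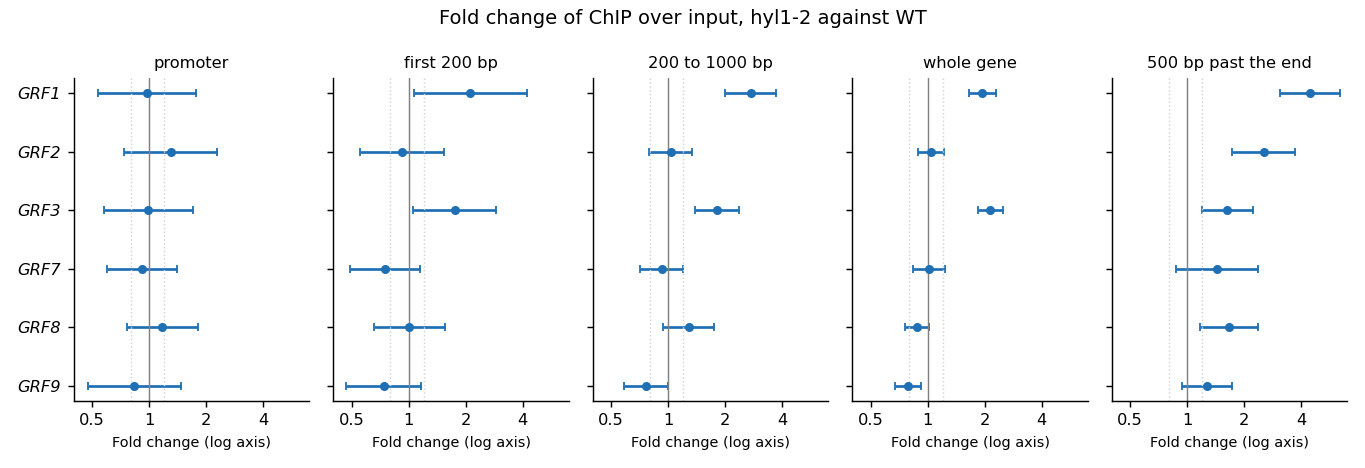
Fold change of ChIP over input in *hyl1-2* against WT (x axes, log scale, no unit) for the 6 genes (y axis) in 5 windows, with 95% intervals for counting error. Solid lines mark 1 and dotted lines the thresholds of 0.8 and 1.2. *GRF1* and *GRF3* have 0.976 and 0.991 at the promoter, with wide intervals, and reach 1.94 and 2.14 over the whole gene.

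In the 2 windows after the 5′ end, *GRF1* and *GRF3* were the only members with an interval of the fold change above 1. In the first 200 bp, *GRF1* held 26 and 44 ChIP reads in WT and *hyl1-2* (29 and 37 in the inputs), a fold change of 2.12 (1.07 to 4.21), and *GRF3* held 48 and 74 (54 and 76 in the inputs), a fold change of 1.75 (1.06 to 2.89). The other 4 members had values from 0.738 (*GRF9*) to 1.00 (*GRF8*), each with an interval that holds 1. The intervals of *GRF1* and *GRF3* overlap those of the other 4 here. Of 27327 protein-coding genes tested in the first 200 bp, 13220 were above 1.2, with a median of 1.18, against 2 of the 6 members. From 200 to 1000 bp downstream, *GRF1* held 122 and 139 input reads and 152 and 295 ChIP reads and reached 2.72 (1.99 to 3.71), whereas *GRF3* reached 1.81 (1.38 to 2.36) from 155 and 202 input reads and 235 and 347 ChIP reads. In this region 3 of the 6 members were above 1.2, with *GRF8* at 1.28 (0.940 to 1.74) as the third, and 30.3% of all genes were. *GRF9* was at 0.763 (0.587 to 0.993).

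Along the gene, the difference at *GRF1* was largest near the 5′ end and that at *GRF3* in the 3′ part. Each gene was divided into 5 equal parts from 5′ to 3′. In *GRF1* the fold changes of these parts were 3.36 (2.23 to 5.05), 2.74, 1.81, 1.33 (0.968 to 1.84) and 1.86. In *GRF3* they were 1.45 (1.06 to 1.99), 1.97, 2.86, 3.45 (2.58 to 4.62) and 1.56. The intervals of part 1 and of part 4 do not overlap between the 2 genes, so the course of the difference was not the same. The median over all genes went from 1.08 in part 1 to 0.884 in part 4 and 1.01 in part 5. *GRF2* stayed between 0.891 and 1.27, *GRF7* between 0.883 and 1.28 and *GRF9* between 0.645 and 0.966, while *GRF8* went from 1.18 and 1.30 in parts 1 and 2 to 0.666 (0.493 to 0.901) in part 3.

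In bins of 100 bp, which share reads with their neighbours, the *hyl1-2* ChIP library exceeded the WT ChIP library in RPM in all 28 bins of *GRF1* and all 30 bins of *GRF3*. It exceeded WT in 13 of 25 bins of *GRF2*, 16 of 19 bins of *GRF7*, 12 of 36 bins of *GRF8* and 1 of 23 bins of *GRF9*. The lowest point of WT ChIP in *GRF3* was 0.292 RPM, between 1600 and 1700 bp from the 5′ end, and its highest was 3.98 RPM, between 2500 and 2600 bp. In *hyl1-2* the highest bin of *GRF3* held 6.33 RPM, between 2800 and 2900 bp. In the bin of the WT trough *hyl1-2* ChIP held 3.73 RPM, between 5.18 RPM before it (1200 to 1300 bp) and 6.26 RPM after it (2400 to 2500 bp), so *hyl1-2* had a shallower dip at the same place. The lowest bin of the trough lies in the last intron. Counted by the midpoint of the read, the 3 introns of *GRF3* (31.0% GC) held 191 and 233 input reads and 179 and 499 ChIP reads in WT and *hyl1-2*, a fold change of 3.65 (2.82 to 4.71). The 4 exons (44.3% GC) held 268 and 379 input reads and 559 and 835 ChIP reads, a fold change of 1.69 (1.39 to 2.04). In *GRF1* exons and introns were alike, with 1.90 (1.56 to 2.32) and 2.05 (1.46 to 2.89). WT ChIP of both genes was lower over input in introns (0.478 in *GRF1*, 0.441 in *GRF3*) than in exons (0.848 and 0.981). An antisense lncRNA gene, AT2G08795 (227 bp), lies within *GRF3*.

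The ratio of ChIP to input was also set against GC content along the genes. Over the 161 bins of 100 bp in the 6 genes, Pearson's r between GC content and the log2 ratio was 0.466 in WT and 0.353 in *hyl1-2*, as a description of bins that share libraries, base composition and reads. Over 636715 bins of all protein-coding genes it was 0.471 and 0.347. Within single members it was 0.709 in WT and 0.442 in *hyl1-2* for *GRF3*, and between 0.401 and 0.699 in both genotypes for *GRF1*, *GRF2*, *GRF8* and *GRF9*. *GRF7* had -0.014 in WT and 0.177 in *hyl1-2*, and *GRF7* and *GRF8* were the members with the larger value in *hyl1-2*. Over the whole gene the members had 38.9% to 40.1% GC against a median of 38.9% for all genes. A correction for GC content left *GRF1* at 2.04 and *GRF3* at 2.25.

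**Figure D3:**
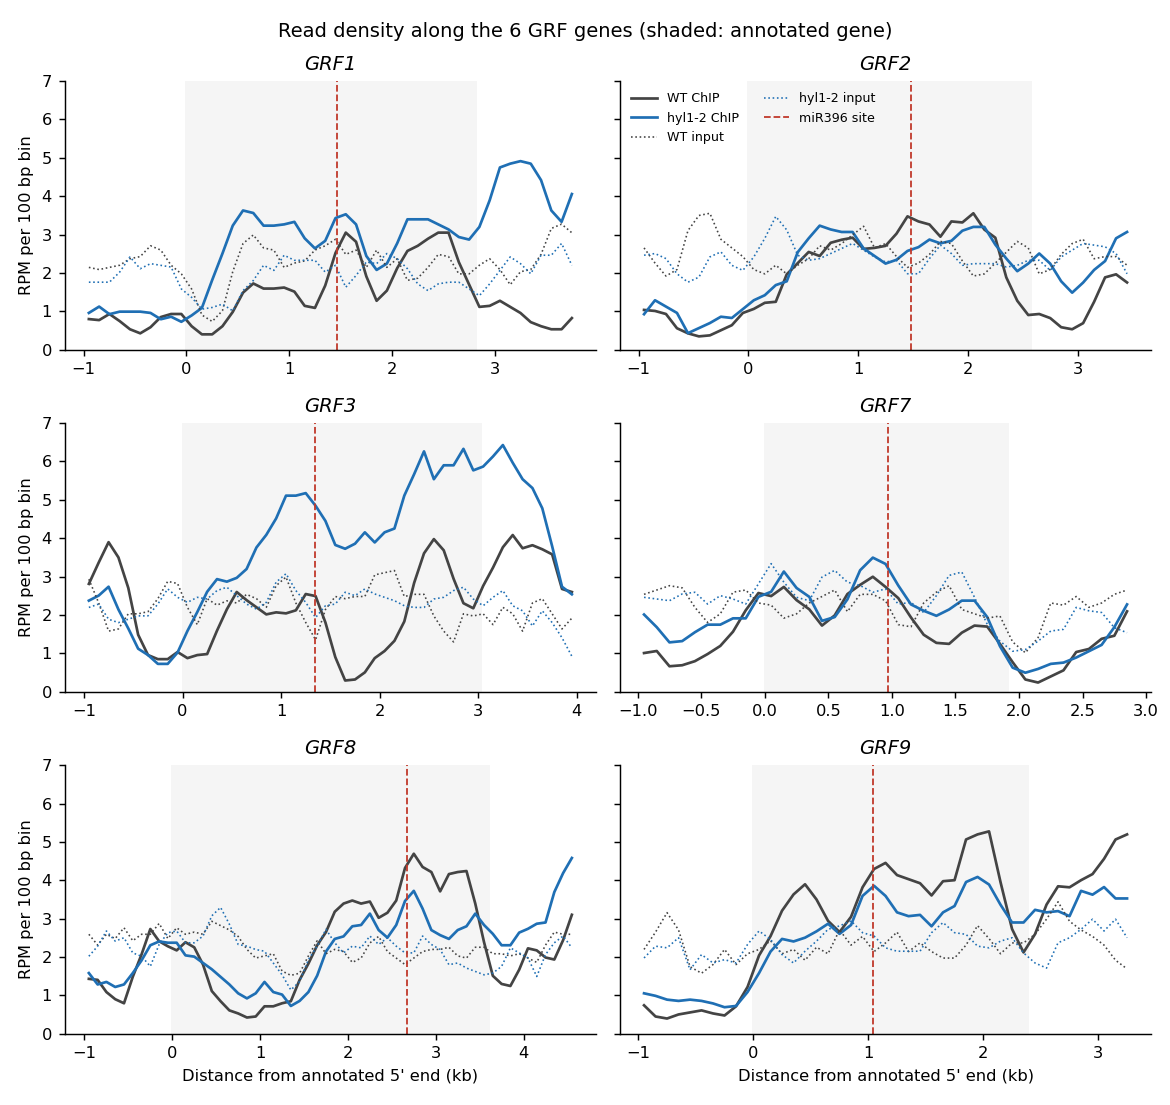
RPM per 100 bp bin (y axes) against the distance from the annotated 5′ end in kb (x axes) for each of the 6 genes, with ChIP as solid and input as dotted lines in WT (dark) and *hyl1-2* (blue). Shading marks the annotated gene and the red dashed line the miR396 site. The *hyl1-2* ChIP line lies above the WT line in all 28 bins within *GRF1* and all 30 within *GRF3*, and in 1 of 23 within *GRF9*.

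The miR396 site divides each gene into a part before and a part after it, and occupancy was compared between them. In *GRF1* the fold change was 2.47 (1.96 to 3.13) before the site, from 276 and 454 ChIP reads, and 1.62 (1.29 to 2.02) after it, from 443 and 473. The quotient of after and before was 0.654 (0.473 to 0.904). In *GRF3* the fold change was 1.75 (1.41 to 2.17) before and 2.37 (1.95 to 2.87) after the site, a quotient of 1.36 (1.02 to 1.81). The 2 genes thus went in opposite directions across the site. In the other members the quotient was 1.15 (*GRF2*, 0.836 to 1.57), 1.27 (*GRF7*, 0.882 to 1.84), 0.969 (*GRF8*, 0.712 to 1.32) and 1.12 (*GRF9*, 0.818 to 1.54), and the median of the 6 was 1.13. When 200 bp on each side of the site were left out, so that no read was counted on both sides, the quotients of *GRF1* and *GRF3* were 0.600 and 1.42, and that of *GRF7* became 1.56 (1.03 to 2.36).

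**Figure D4:**
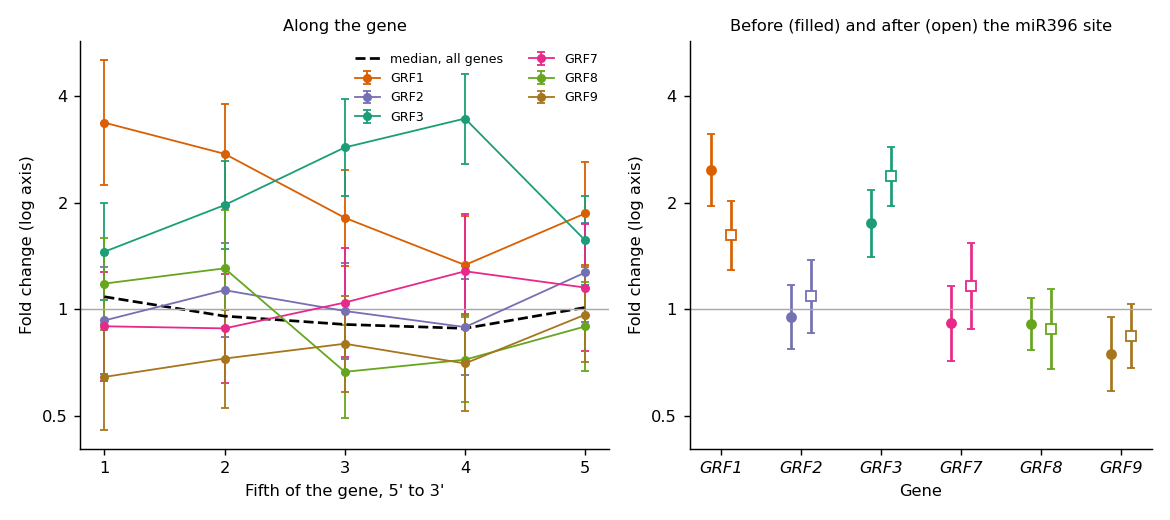
Left, fold change of ChIP over input in *hyl1-2* against WT (y axis, log scale) in 5 equal parts of each gene (x axis), with the median over all protein-coding genes as a dashed line. Right, fold change before (filled) and after (open) the miR396 site in each gene. Bars are 95% intervals for counting error. *GRF1* goes from 3.36 in part 1 to 1.33 in part 4, whereas *GRF3* goes from 1.45 to 3.45.

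Because 3 of the members overlap a protein-coding gene on the opposite strand at their 3′ end, these neighbours were measured too. *GRF1* shares 23 bp with *bZIP6* (AT2G22850), a transcription factor gene that held 292 and 1166 ChIP reads in WT and *hyl1-2* (348 and 437 in the inputs), a fold change of 5.08 (4.20 to 6.14). *GRF3* shares 5 bp with *SBE2.1* (AT2G36390), which encodes a starch branching enzyme and had 1.201 (1.08 to 1.34). *GRF9* shares 126 bp with the Aurora kinase gene *AUR3* (AT2G45490), which had 0.939 (0.782 to 1.13). Thus the neighbour of *GRF1* differed more between the genotypes than *GRF1* did. Without the last 500 bp of each gene, a choice made after the data were seen, the fold change was 1.96 (1.63 to 2.36) for *GRF1*, 2.26 (1.92 to 2.65) for *GRF3* and 0.740 (0.618 to 0.885) for *GRF9*. *GRF2* has a convergent *bZIP* gene as well, *bZIP7* (AT4G37730), 299 bp past its end, with 1.87 (1.47 to 2.37), and *GRF8* is followed after 79 bp by AT4G24160 with 1.31 (1.13 to 1.52).

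In the 500 bp past the annotated end, all 6 members were above 1.2, where 50.5% of all protein-coding genes were. *GRF1* had 4.45 (3.09 to 6.41), from 90 and 301 ChIP reads, and *GRF2* had 2.53 (1.71 to 3.72), from 67 and 137. These windows hold parts of *bZIP6* and *bZIP7*. The windows of *GRF3* and *GRF9* lie within *SBE2.1* and *AUR3*, and that of *GRF8* holds part of AT4G24160. After *GRF7* the next annotated gene is 904 bp away. *GRF3* (1.63, 1.19 to 2.22) and *GRF8* (1.66, 1.16 to 2.36) also had intervals above 1. The values of *GRF7* (1.44, 0.873 to 2.36) and *GRF9* (1.28, 0.943 to 1.73) had intervals that hold 1. RNA Pol II past the end of a member and on the next gene cannot be told apart in reads without a transcribed strand.

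*GRF8* has 3 annotated transcripts, and their 5′ ends lie 1318 bp apart. Upstream of the second 5′ end ChIP was low in both genotypes, with a ratio of 0.458 in WT and 0.593 in *hyl1-2* from 221 and 230 ChIP reads. From the second 5′ end to the end of the gene the ratios were 1.39 and 1.12 from 974 and 619 ChIP reads. ChIP in both genotypes was thus higher after the second 5′ end, over the region of the transcript with 4 exons. Measured from there, a choice made after the data were seen, the gene had a fold change of 0.804 (0.674 to 0.959). The 200 bp upstream of the second 5′ end held 42 and 45 reads in the inputs and 36 and 46 in the ChIP libraries. Their fold change was 1.90 (1.04 to 3.49), against 1.17 at the promoter window used above, which precedes the first 5′ end.

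**Figure D5:**
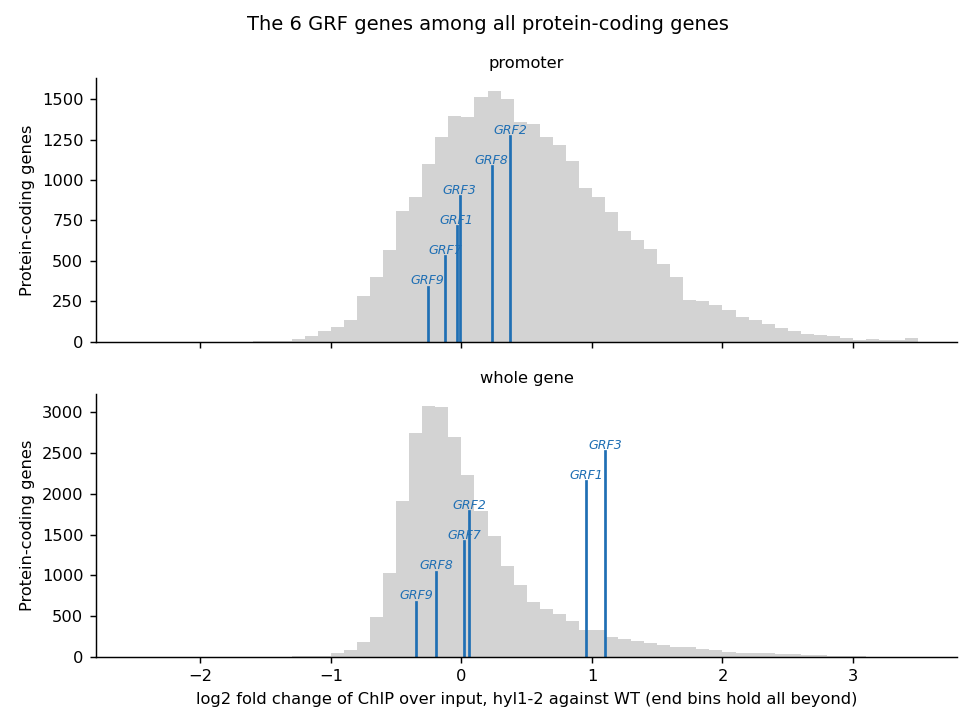
Number of protein-coding genes (y axes) by log2 fold change of ChIP over input in *hyl1-2* against WT (x axis), for the promoter (top) and the whole gene (bottom), with the 6 members as blue lines. The members lie between -0.26 and 0.37 at the promoter, where the median of all genes is 0.42, and *GRF1* (0.96) and *GRF3* (1.1) lie in the right flank for the whole gene, where the median is -0.06.

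Other genes of the pathway were compared in the same way, as a list of 14. Over the whole gene 6 of the 14 were above 1.2 and 1 below 0.8, beside 25.9% and 21.4% of all protein-coding genes. At the promoter 11 were above and 1 below, beside 58.6% and 11.7% of all promoters, with a median of 1.39 for the list and 1.33 for all. The list includes the 2 genes of miR396, which are not protein-coding. Of its 12 protein-coding genes, 4 were above and 1 below over the whole gene. At the promoter 9 of these 12 were above and 1 below, with a median of 1.30. Among the 3 *GRF* genes outside the group, *GRF4* (AT3G52910), whose miR396 site is identical to that of *GRF3*, had 0.804 (0.684 to 0.945) over the whole gene from 916 and 628 ChIP reads. *GRF5* (AT3G13960) had 0.883 (0.751 to 1.04), and *GRF6* (AT2G06200) had 0.773 (0.619 to 0.965). Hence genes of this family with and without the site were found among the values below 1, and *GRF3* and *GRF4*, with the same site, lay on opposite sides of 1.

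Of the GIF coactivators, which bind GRF proteins, *GIF1* (AT5G28640), known for its role in leaf growth, had 0.886 (0.744 to 1.06), and *GIF2* (AT1G01160) and *GIF3* (AT4G00850) had 1.70 (1.41 to 2.05) and 1.40 (1.17 to 1.67). *GIF2* held 587 ChIP reads in WT and 878 in the mutant. *BRM* (AT2G46020) and *SWP73B* (AT5G14170), which encode subunits of the SWI/SNF chromatin remodelling complex, had 0.910 (0.835 to 0.993) and 0.874 (0.739 to 1.03) over the whole gene. At the promoter they had 3.49 (1.94 to 6.31) and 1.62 (0.939 to 2.81). *TCP4* (AT3G15030), a transcription factor known to activate *MIR396B*, had 1.34 (1.12 to 1.60) over the whole gene. *ANT* (AT4G37750), a growth regulator of young organs, had 1.05 (0.895 to 1.24), and *bHLH74* (AT1G10120), a further miR396 target, had 0.818 (0.700 to 0.955). Over the whole gene the partners thus did not share 1 direction.

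The 2 genes of miR396 itself were above 1.2 in each window tested. Their annotated loci begin close to the mature miR396 sequences, so the 200 bp before the loci was not shown to precede a transcription start. The word promoter stands for that window here and in the counts of the list. *MIR396A* (AT2G10606) held 42 and 71 input reads and 62 and 123 ChIP reads at the promoter, a fold change of 1.87 (1.15 to 3.05), and *MIR396B* (AT5G35407) had 1.73 (0.971 to 3.07). From 200 to 1000 bp downstream, which is past the annotated loci of 151 and 135 bp, the values were 5.02 (3.57 to 7.05) from 74 and 268 ChIP reads and 2.75 (1.97 to 3.83) from 91 and 178. WT ChIP was far below input in this region, at 0.240 (*MIR396A*) and 0.280 (*MIR396B*), while the *hyl1-2* ratios were 1.204 and 0.768. *DREB2A* (AT5G05410), a stress response gene that GRF7 is known to repress, had the highest whole-gene and promoter fold changes of the list, with 2.45 (2.10 to 2.86) over the whole gene from 1698 and 3225 ChIP reads and 4.22 (2.54 to 7.04) at the promoter. The motif TGTCAGG starts 299 bp before its 5′ end, and 3.35% of all genes hold it within 1000 bp upstream. *GRF7* itself had 1.02 over the gene.

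Beyond the pathway, the genes whose values were most like the median of the 6 members were looked up in 9962 protein-coding genes with at least 50 reads in each library in both windows. The likeness was the Euclidean distance over 4 values, the log2 ratio of ChIP to input in promoter and whole gene in both genotypes. The 3 nearest were AT1G09932 (distance 0.103), AT1G72220 (0.231) and AT1G25510 (0.252). The members themselves lay between 0.521 (*GRF2*) and 1.49 (*GRF8*) from their own median. Being nearest is what chose the 3 genes, and only 2 of the 6 members (*GRF7* and *GRF8*) reach 50 reads in each library, so the distances of the members and of these genes are not compared.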

How the data were processed

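The 6 members, the pathway list, the marker lists, the windows and the alternatives were chosen with earlier results of these data known. Per the labels and the methods of the study, the authors aligned reads to TAIR10 with Bowtie, removed duplicates with SAMtools and converted the reads with bedtools into extended intervals. The deposited files hold 1 interval per read, 175 bp long for input and 200 bp long for ChIP, and reads of both strands were extended towards higher coordinates, so the ChIP to input ratio is raised in short windows in both genotypes alike. As the score of a read the authors deposited its mapping quality, used here only in the alternative without reads of mapping quality 0. After removal of duplicates 0 reads had the position and strand of another, and each library came from 1 lane. Other values deposited by the authors are start, end and strand.

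Counting used Python 3.11.15, the packages NumPy 2.4.6 and pandas 2.3.3 for tables and Matplotlib 3.10.9 for figures. RPM were computed over all reads of the library. The 95% interval of a ratio or fold change is log-normal and computed from the read counts. It covers counting error only, and without molecular identifiers a read need not be an independent molecule. With 1 library per condition no test and no p-value was computed. Gene models and sequences are those of RefSeq on TAIR10.1, whose nuclear chromosomes have the lengths of TAIR10. The counting was tested on simulated data before use. The genes named are the members, the 14 genes of the pathway list, *HYL1*, the markers, the overlapping or adjacent genes and the 3 genes nearest to the members' median.

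The alternatives were nuclear reads as total, scaling on 62521 intergenic windows at least 1000 bp from a gene or on the median protein-coding window, no reads of mapping quality 0, ChIP without division by input, counting by midpoint, extension along the own strand, a correction for taken positions, a GC correction in steps of 2 percentage points, thresholds of 1.5 and its inverse, a promoter window from 300 to 100 bp upstream, the coding span or the region from 200 to 1000 bp downstream in place of the gene, and a minimum of 50 reads or of 1 read. Leaving out the last 500 bp and the second 5′ end of *GRF8* were added after seeing the data.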

Additional observations from a re-analysis of the deposited data

How the results depend on the processing

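With 1 library per condition, no replicate could be left out. No paired analysis was possible because each condition has 1 library. The median whole-gene fold change of the 6 genes ranged from 0.917 to 1.15 over 13 alternatives, *GRF1* from 1.63 to 2.72 and *GRF3* from 1.81 to 2.26, and both stayed above 1.2 in all of them. The scaling shifts all genes together, by a median log2 fold change of -0.06 as reported, -0.23 with intergenic scaling and 0 with scaling on the median gene. Over all genes the higher and lower shares became 19.0% and 40.0% with intergenic scaling (49.4% and 18.7% at promoters), and 36.7% and 31.6% at promoters with scaling on the median promoter. With thresholds of 1.5 and its inverse, 14.6% of all genes were higher and 3.45% lower, and 2 and 0 of the members.

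The number of members lower over the whole gene, 1 as reported, was 2 with intergenic scaling (*GRF8* and *GRF9*) and 0 with scaling on the median gene, no division by input, a correction for GC content or thresholds of 1.5. The number of members with a higher promoter, 1 as reported, was 0 with intergenic scaling, scaling on the median promoter, no division by input, a correction for GC content, thresholds of 1.5 or at least 50 reads (which 2 members reach), and 2 with extension along the own strand. The number with a lower promoter, 0 as reported, was 1 with intergenic scaling or extension along the own strand and 4 with scaling on the median promoter or a correction for GC content. *GRF2* went from 1.30 to 0.972 and 0.990 in the last pair of settings. The median level of the 6 genes moved from 0.876 to 1.76 in WT and from 1.05 to 1.88 in *hyl1-2* with intergenic scaling. The cause of these changes was not tested.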

Other observations

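From 1000 to 500 bp upstream, 5 of the 6 members had a fold change above 1.2, as had 38.5% of all protein-coding genes, and the medians were 1.44 for the members and 1.07 for all genes. *GRF7* had 1.89 (1.29 to 2.77) there from 79 and 118 ChIP reads, *GRF9* had 1.75 (1.12 to 2.73) from 54 and 68, and *GRF3* was the exception with 0.821 (0.586 to 1.15). WT ChIP was well below input in this region at the 5 genes, with ratios from 0.254 to 0.409, whereas at *GRF3* it was 1.21. The annotation places a pseudogene, AT2G36402, 529 bp upstream of *GRF3*.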
